A study of Arabidopsis thaliana with 12 samples.

Results

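Peroxiredoxin IIE (PRXIIE, AT3G52960), L-galactonolactone dehydrogenase (GLDH, AT3G47930), the chloroplastic lipocalin (CHL, AT3G47860) and glyoxalase GLX2-1 (AT2G43430) are 4 nuclear genes for proteins of peroxide, ascorbate, lipid and aldehyde protection. They are 4 of the 689 loci that a probe with exactly 1 annotated gene names, among 3439 probes in all. Each of them has 1 such probe, and no probe annotated with several genes lists any of them. They were picked for how they differed between bromoxynil and water, so their own differences are described here with their errors and without p-values, and a count of them past a threshold is a description.

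The plants compared were wild type, of the ecotype Landsberg. One group of 6 arrays came from plants treated with 500 µM bromoxynil, and the other group of 6 came from plants treated with water. All plants went through 12 h of darkness and were then back in light for 30 min. The labels give no organ, no age and no number of plants per array. Whether each array had its own plants is not stated either, so the errors below cover the spread between arrays, which may be technical. Consecutive numbers of a group may not be independent either. Numbers 1 and 2, 3 and 4, and 5 and 6 were therefore also averaged, leaving 3 values a group. The fit then called 1230 probes, against 1872 with 6 arrays a group. Fewer values a group lower such a count by themselves, so it cannot tell whether consecutive numbers are independent. Of 8 leaf marker genes, 1 was named by a single-gene probe, the antenna protein LHB1B2, which lay at percentile 99.4 by mean signal. Of 6 root and seed markers, 0 were. LHB1B2 itself fell with bromoxynil, with deposited means of 7.82 with bromoxynil and 17.5 with water and no overlap. Its log2 change was -0.88 ± 0.12 (adjusted p = 8.2e-05, limma), and -0.49 ± 0.19 once arrays were adjusted for probe place, as described below (adjusted p = 0.0571, limma). Its part in the results below was not tested.

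Bromoxynil is a nitrile herbicide that blocks the flow of electrons out of photosystem II. In the light, blocked photosystem II passes its energy to oxygen, and singlet oxygen and peroxides of membrane lipids form in the chloroplast. PRXIIE is a thiol peroxidase of the plastid stroma that reduces hydrogen peroxide and organic peroxides and is then reduced again by glutaredoxin and glutathione. GLDH makes the last step of ascorbate synthesis at the inner mitochondrial membrane, where it hands electrons to cytochrome c, and it is also needed to assemble respiratory complex I. CHL is a lipocalin of the thylakoid lumen, known in Arabidopsis for limiting lipid peroxidation and for a slow form of photoprotective quenching. GLX2-1 is a mitochondrial member of the glyoxalase II family, enzymes of the glutathione-dependent removal of methylglyoxal, although the purified Arabidopsis protein lacks that activity.

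The 4 transcripts did not differ from water in 1 common direction. PRXIIE was higher with bromoxynil, GLDH and CHL were lower, and GLX2-1 was higher on some array numbers and lower on others. On the deposited scale, on which the brightest feature of every array is 100, the PRXIIE mean with bromoxynil was 6.26 times that with water, and the ratios were 0.481 for GLDH, 0.758 for CHL and 1.54 for GLX2-1. The middle of the deposited distribution was itself higher with bromoxynil, by 0.46 on the log2 scale at the median, so changes below are taken after quantile normalisation, which makes the distribution of all 12 arrays equal.

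**Figure D1:**
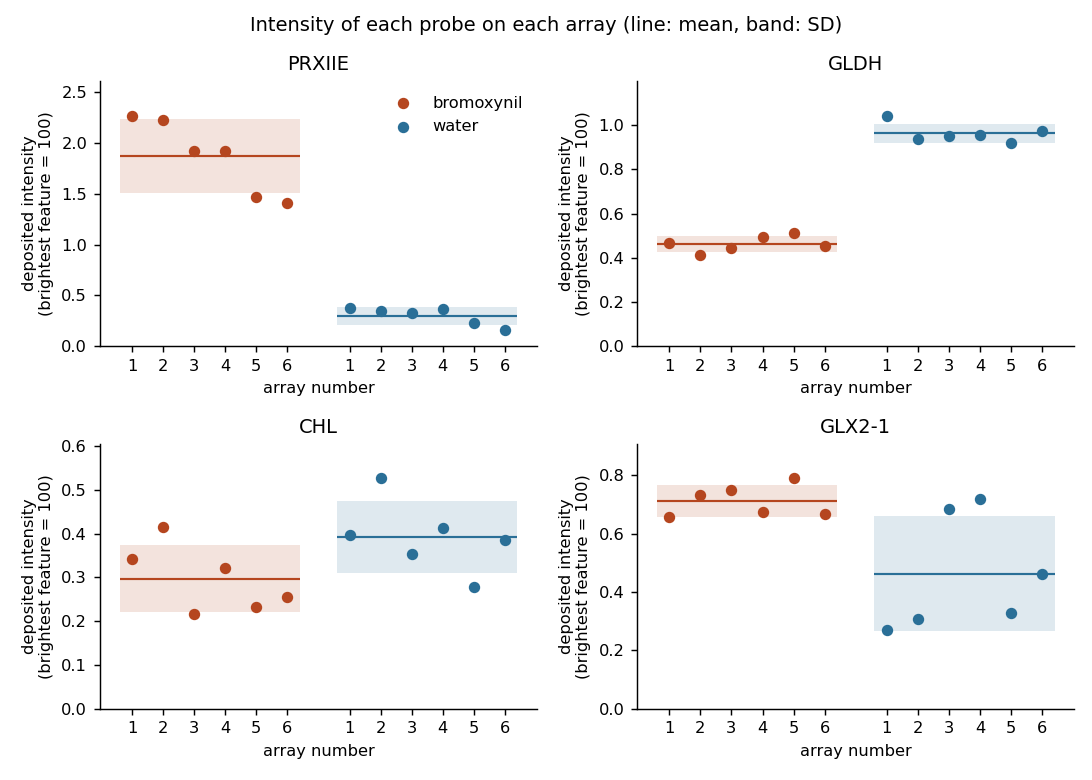
Deposited intensity (vertical axis, relative to the brightest feature at 100, each panel on its own scale from 0) of the 4 probes on every array, bromoxynil arrays 1 to 6 left and water arrays 1 to 6 right; points are arrays, lines the group means and bands the SD. PRXIIE and GLDH have no overlap between the groups, CHL overlaps, and GLX2-1 in water spans 0.270 to 0.718.

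Of the 4 genes, PRXIIE differed by the most. Its deposited intensity ran from 1.41 to 2.27 over the bromoxynil arrays, with a median of 1.92, and from 0.159 to 0.374 over the water arrays, with a median of 0.334. Every bromoxynil array thus lay well above every water array. On quantile-normalised values PRXIIE averaged 0.85 ± 0.32 log2 units with bromoxynil and -1.61 ± 0.51 with water (SD, n = 6 each). The log2 change was 2.46 ± 0.24 (SE, limma), a 5.51-fold higher level with a 95% interval of 3.85 to 7.89. Of all 3439 probes, 27 had a higher change, and 8 of these were probes that name 1 gene.

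The rank of a probe within its own array does not depend on how arrays are scaled. Ranks here were taken from deposited values, without the adjustment for probe place described below, so any shift with place remains in them. PRXIIE lay between percentiles 87.6 and 95.2 of the 3439 probes on the bromoxynil arrays and between 12.2 and 41.0 on the water arrays. It therefore stood among the bright probes of every bromoxynil array and below the middle on every water array.

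The level of PRXIIE also moved with the array number, in both groups alike. On bromoxynil arrays 1 and 2 its quantile-normalised level averaged 1.16 log2 units, on 3 and 4 it averaged 0.94, and on 5 and 6 it averaged 0.45. The water arrays of the same numbers averaged -1.21, -1.42 and -2.21. Arrays 5 and 6 were the lowest of each group. For all 6 numbers the bromoxynil and the water array deviated from their group means in the same direction, against a median of 4 of 6 numbers over all probes. What a number shares is not stated in the labels. Set against the water array of its own number, each bromoxynil array was higher, by 2.27 to 2.91 log2 units, which is 4.82-fold to 7.54-fold.

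GLDH, the ascorbate synthesis gene, differed the opposite way, and its quantile-normalised levels had the smallest SD of the 4 within each group. Its deposited intensity was 0.411 to 0.511 with bromoxynil, with a median of 0.458, and 0.921 to 1.04 with water, with a median of 0.953. No bromoxynil array came near a water array. The quantile-normalised means were -1.32 ± 0.12 with bromoxynil and 0.11 ± 0.07 with water (SD, n = 6 each). The log2 change was -1.42 ± 0.07 (SE, limma), so the level with bromoxynil was 37.3% of that with water. In rank, GLDH lay between percentiles 29.6 and 40.5 on bromoxynil arrays and between 80.3 and 84.5 on water arrays. It thus lay below the middle of every bromoxynil array and well above the middle of every water array. The change was lower for 175 of the 3439 probes, 30 of which name 1 gene.

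By array number, the difference of GLDH was negative in 6 of 6 pairs and ran from -1.57 to -1.20 log2 units. The arrays of GLDH deviated from their group means in the same direction on 2 of 6 numbers. Its level in the bromoxynil arrays had no gap between consecutive numbers beyond 0.18 log2 units.

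CHL, the lipocalin, was also lower with bromoxynil, but its groups overlapped. The deposited intensity was 0.216 to 0.414 with bromoxynil, with a median of 0.289, and 0.278 to 0.526 with water, with a median of 0.391. The highest bromoxynil array, number 2, exceeded 5 of the 6 water arrays on this scale. Quantile-normalised levels averaged -1.97 ± 0.34 with bromoxynil and -1.16 ± 0.32 with water (SD, n = 6 each). The log2 change was -0.81 ± 0.19 (SE, limma), or 57.1% of the water level. On the deposited scale the log2 change was -0.41 ± 0.19. CHL was the dimmest of the 4 probes, at percentile 25.8 by mean signal, just above the dimmest 25%.

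The overlap of CHL was between arrays of different numbers. Array 2 was the highest of its group with bromoxynil and with water, and arrays 3 and 5 were the lowest 2 of each group. Within a number, the bromoxynil array was lower in 6 of 6 pairs, by -1.01 to -0.67 log2 units. The SD of these 6 differences was 0.14, smaller than the SD within either group, and 94.0% of probes had a larger one. The same SD was 0.15 for GLDH and 0.23 for PRXIIE.

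GLX2-1 was the exception among the 4, since its difference changed sign with the array number. With bromoxynil its deposited intensity was narrow, from 0.657 to 0.790 with a median of 0.703. With water it was 0.270, 0.309, 0.686, 0.718, 0.327 and 0.463 on arrays 1 to 6. Water arrays 3 and 4 lay within the bromoxynil range, and the other 4 water arrays lay below it. The ratio of bromoxynil to water within a number ran from 0.940 on number 4 to 2.43 on number 1. Quantile-normalised, the level was -0.72 ± 0.13 log2 units with bromoxynil and -1.01 ± 0.57 with water (SD, n = 6 each). The log2 change was 0.29 ± 0.23 (SE, limma), with a 95% interval of -0.21 to 0.79, which includes no change and also a 1.73-fold higher level.

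On quantile-normalised values the bromoxynil array of GLX2-1 was higher than its water array by 0.80 on number 1, by 0.76 on number 2, by 0.86 on number 5 and by 0.08 on number 6. On numbers 3 and 4 the differences were -0.27 and -0.50, and these 2 water arrays then exceeded all 6 bromoxynil arrays. The SD of the 6 differences was 0.60, and 21.8% of probes had a larger one. Without numbers 3 and 4 in both groups, a choice made after these values were seen, the log2 change was 0.63 ± 0.18. Water arrays 3 and 4 stood above the other 4 water arrays not only for GLX2-1 but for 493 of the 3439 probes (14.3%), and the bromoxynil arrays 3 and 4 did so in their group for 299 probes (8.69%). No other pair of numbers is set beside these counts, so they do not show that numbers 3 and 4 stand apart. The part of such a shared pattern in the GLX2-1 result was not tested.

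**Figure D2:**
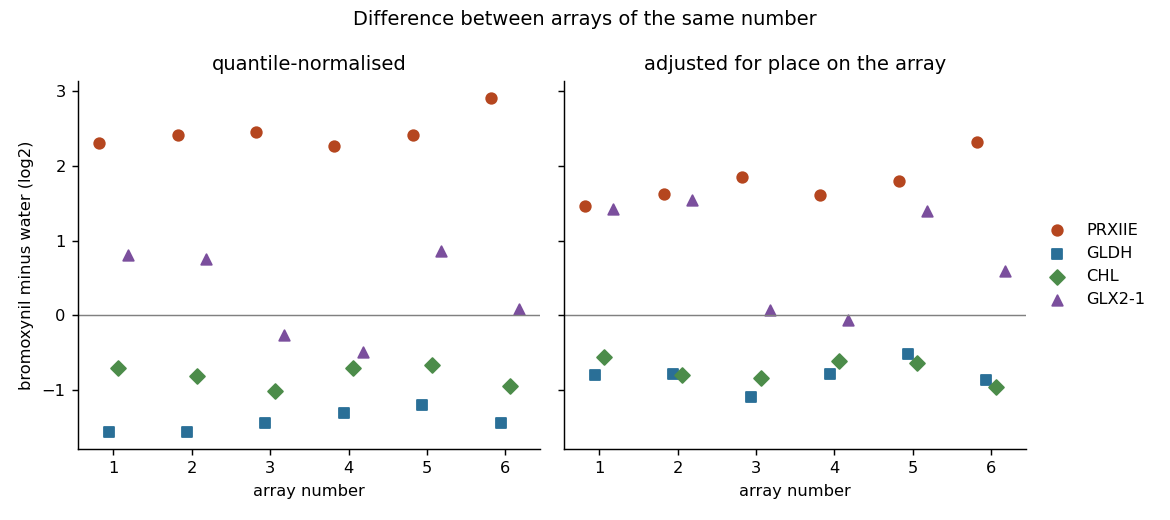
Log2 level on each bromoxynil array minus that on the water array of the same number (vertical axis) against array number (horizontal axis), for the 4 genes. Quantile-normalised values are left, and values adjusted for probe place, a position in a repeat of probe numbers, are right. PRXIIE is above 0 and GLDH and CHL are below 0 on all 6 numbers in both panels, while GLX2-1 is below 0 on numbers 3 and 4 left and on number 4 right.

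The opposite directions held number by number for 3 of the genes. PRXIIE differed from water in the direction opposite to GLDH on 6 of 6 numbers, and opposite to CHL on 6 of 6. The PRXIIE change exceeded that of GLDH by 3.89 ± 0.29 log2 units (SD, n = 6 numbers), with a range of 3.58 to 4.37, and that of CHL by 3.27 ± 0.34. GLDH and CHL shared their direction on 6 of 6 numbers, and the GLDH change was the more negative by -0.61 ± 0.16. GLX2-1 shared the direction of PRXIIE on the 4 numbers where it was higher and was opposite to it on 2. That count is for quantile-normalised values. On deposited values, and after the place adjustment described below, GLX2-1 was opposite to PRXIIE on 1 number, number 4.

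The 4 genes were chosen on this contrast, so nothing is read from the counts that follow, which stand beside those of the whole array. Among all probes, 54.4% passed the threshold of 0.05 (limma, p adjusted by Benjamini-Hochberg), 24.5% as higher and 29.9% as lower with bromoxynil. Of the 4 genes, 3 passed, 1 as higher and 2 as lower, and GLX2-1 did not. Which genes passed depended on the processing. On deposited values, where 56.4% of probes passed, CHL did not pass and GLX2-1 did. All 4 passed with the place adjustment described below (47.4% of probes) and without numbers 3 and 4 of both groups (49.3%). With averaging and a replicate block added to the place adjustment (27.8%), GLX2-1 again did not pass. On quantile-normalised values, the groups did not overlap for 36.5% of probes, 15.6% higher and 20.8% lower with bromoxynil. They did not overlap for 2 of the 4 genes, 1 each way. In rank within the array, the groups did not overlap for 37.5% of probes, and for the same 2 genes. All 6 same-number differences had 1 sign for 56.8% of probes, and for 3 of the 4 genes.

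The change of a probe on these arrays also moved with the place of the probe, through a repeat of 288 probe numbers. A place is the position of a probe number in this repeat, and physical positions on the array were not used. Over places, the median change of the probes within 6 places ran from -0.78 to 0.73 log2 units. It was 0.55 at the place of PRXIIE, -0.61 at that of GLDH, -0.07 at that of CHL and -0.75 at that of GLX2-1. The surroundings thus shared the direction of PRXIIE and of GLDH, were near 0 for CHL and ran against GLX2-1.

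**Figure D3:**
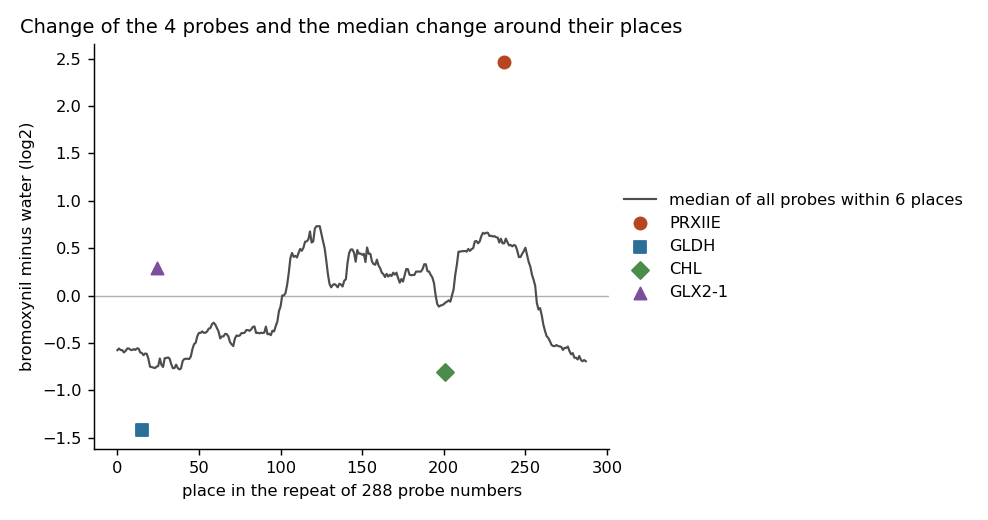
Log2 change with bromoxynil (vertical axis) against the place in the repeat of 288 probe numbers (horizontal axis); the line is the median of all probes within 6 places and the symbols are the 4 genes. PRXIIE stands above a raised stretch (0.55), GLDH and GLX2-1 stand in a lowered stretch (-0.61 and -0.75), and CHL stands where the line is near 0 (-0.07).

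After each array was adjusted for place, the log2 changes were 1.78 ± 0.21 for PRXIIE, -0.82 ± 0.08 for GLDH, -0.74 ± 0.15 for CHL and 0.83 ± 0.28 for GLX2-1 (SE, limma). The directions were those seen before, but the GLDH change minus the CHL change was now -0.08 ± 0.17 (SD, n = 6 numbers), with a range of -0.26 to 0.11 that includes 0. The PRXIIE change exceeded that of GLX2-1 by 0.95 ± 0.86, against 2.17 ± 0.66 before the adjustment. PRXIIE and GLDH stayed apart by 2.59 ± 0.38, and the CHL groups no longer overlapped. Per number, GLX2-1 was then higher with bromoxynil on 5 of 6 numbers, by up to 1.54 log2 units on number 2, and differed by -0.06 on number 4 and by 0.07 on number 3.

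**Figure D4:**
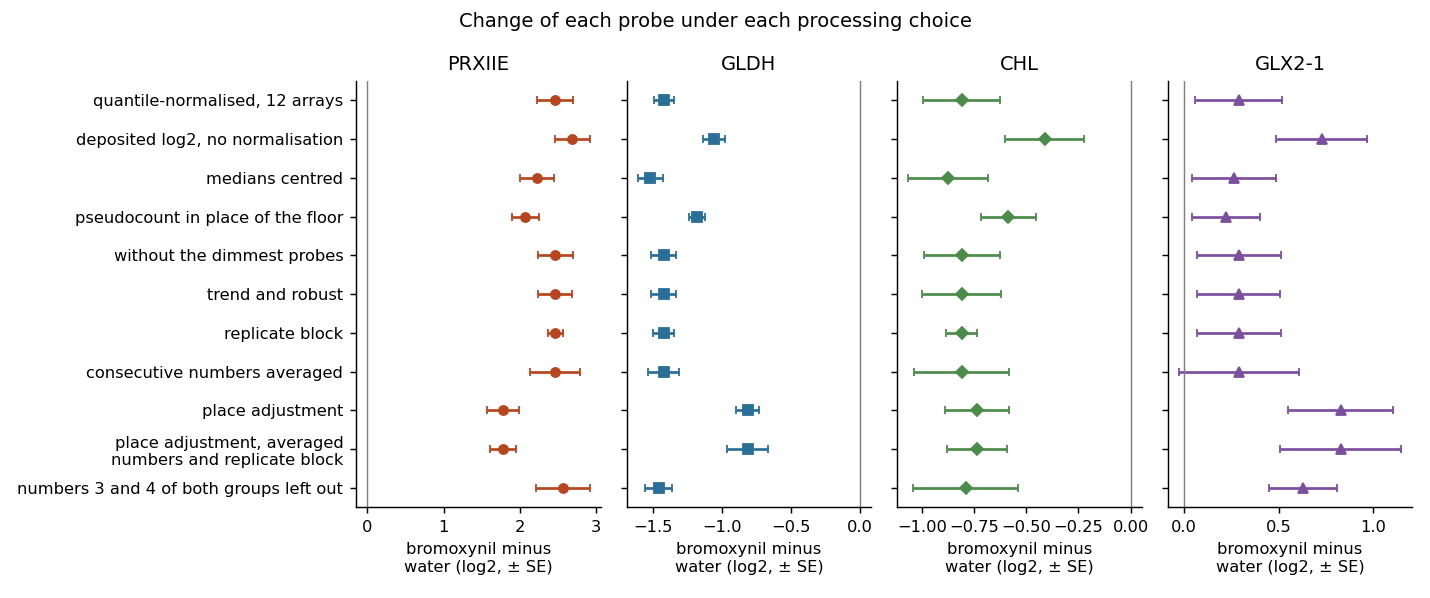
Log2 change with bromoxynil (horizontal axes, each panel on its own scale; bars are SE) of the 4 genes under 11 ways of processing (rows). PRXIIE lies between 1.78 and 2.69, GLDH between -1.52 and -0.82, CHL between -0.87 and -0.41, and GLX2-1 between 0.22 and 0.83.

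Few other genes of these pathways could be read. The 12 lists of peroxiredoxins, ascorbate synthesis and recycling, superoxide dismutases and catalases, glutathione peroxidases and transferases, glyoxalases, lipocalins and the xanthophyll cycle, tocopherol synthesis, thiol reductants, methionine sulfoxide reductases and ferritins hold 129 genes. A single-gene probe named 8 of them (6.20%), which are the 4 genes above and 4 others. Of the 4 others, 0 rose, 3 fell and 1 did not pass the test (limma), and 0 were higher with bromoxynil at an unadjusted p under 0.05. Over all probes, 24.5% were called higher and 29.9% lower, and 914 of 3439 were higher at an unadjusted p under 0.05. The count of 3 fell to 1 on deposited values, with consecutive numbers averaged and with the place adjustment. Their median log2 change was -0.42, beside -0.04 over all probes.

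FTRB (AT2G04700) fell. It is the catalytic part of the plastid enzyme that reduces thioredoxins with electrons from ferredoxin. Its deposited intensity was 0.215 to 0.341 with bromoxynil and 0.467 to 0.851 with water, with no overlap. The log2 change was -1.51 ± 0.19 (SE, n = 6 each, adjusted p = 3.94e-05, limma), and -0.96 ± 0.17 after the place adjustment (adjusted p = 0.000543, limma). With consecutive numbers averaged, the change of FTRB was -1.51 ± 0.26 and still passed.

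NTRC (AT2G41680), the plastid thioredoxin reductase that reduces typical peroxiredoxins with NADPH, fell on quantile-normalised values, with a log2 change of -0.46 ± 0.12 (adjusted p = 0.00711, limma). SRX (AT1G31170), the sulfiredoxin that repairs over-oxidised peroxiredoxins, also fell there, by -0.37 ± 0.12 (adjusted p = 0.0225, limma). Neither passed after the place adjustment, with changes of 0.02 for NTRC and 0.0023 for SRX. On the deposited scale the changes were -0.02 for NTRC and 0.06 for SRX, and neither passed. With consecutive numbers averaged, or with numbers 3 and 4 left out, neither passed. The deposited means were 0.690 with bromoxynil and 0.710 with water for NTRC, and 0.707 with bromoxynil and 0.685 with water for SRX. CCS (AT1G12520), the copper chaperone of superoxide dismutase, was among the dimmest probes, at percentile 7.07, and had a log2 change of -0.01 ± 1.08. Its intensities of 0.0312 to 0.261 with bromoxynil lay within those of 0.00716 to 0.329 with water. Without numbers 3 and 4 of both groups, the choice made after values were seen, its change was -0.83 ± 0.25 and passed. The arrays left out were the lowest 2 of each group for CCS. In that fit 2 of these 4 genes, FTRB and CCS, were called, beside 49.3% of all probes.

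The genes whose profiles were most like those of the 4 were found by the root mean square difference between profiles over the 12 arrays, each probe centred on its own mean, among the 495 single-gene probes brighter than the dimmest 25%. Smaller values mean more alike. Because the genes were picked on these same arrays, a shared array pattern or a similar change follows from the choice and is only described. For PRXIIE they were AT2G30100 (0.290), AT1G51080 (0.349) and AT3G25680 (0.374), where the median candidate stood at 1.31. AT1G51080 shared the number pattern of PRXIIE: its lowest bromoxynil arrays were 5 and 6, at 0.40 and 0.38 log2 units, and so were its lowest water arrays, at -2.06 and -1.83. The log2 changes of these 3 genes were 2.16 for AT2G30100, 1.92 for AT1G51080 and 2.97 for AT3G25680.

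For GLDH the most alike were AT3G09050 (0.142), AT1G02020 (0.161) and AT3G54210 (0.179), against 0.825 for the median candidate. AT3G54210 encodes the plastid ribosomal protein L17. The probes of 2 of these genes have places in the repeat close to that of GLDH, which is at 15. AT3G09050 is at place 16 and AT3G54210 at place 10. For CHL the most alike were AT3G08000 (0.216), AT2G37510 (0.237) and AT1G70180 (0.240), against 0.627 for the median candidate. In the repeat, AT2G37510 is at place 202 and CHL at 201.

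For GLX2-1 the most alike were AT1G12100 (0.152), AT3G09490 (0.224) and AT2G17670 (0.229), against 0.602 for the median candidate. None of them has a place in the repeat near that of GLX2-1, which is 24, while they are at places 108, 152 and 236. On water arrays 3 and 4, AT1G12100 was at -0.13 and -0.12 log2 units, above its 6 bromoxynil arrays, which ran from -0.46 to -0.35. On water arrays 1 and 2 it was at -1.43 and -1.04, below them. AT3G09490 had the same order. Its water arrays 3 and 4 were at -0.39 and -0.69, and its bromoxynil arrays at -1.40 to -1.13. Its water arrays 1 and 2 were at -1.79 and -1.70. Of all 3439 probes, 125 (3.63%) had water arrays 3 and 4 above all 6 bromoxynil arrays and another water array below all 6. AT2G17670 did not share this order: its water array 3, at -0.25, lay within its bromoxynil range of -0.45 to 0.0041, and its water array 4 was at 0.06. After the place adjustment the changes of these 3 genes were -0.18, -0.45 and -0.19, below 0, whereas that of GLX2-1 was above 0.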

How the data were processed

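Total RNA was measured on 12 arrays. The deposited values are intensities on a linear scale, from 0 to 100 on every array. The scanning, the background subtraction and the merging of spots by the authors were not given in the sources used here. Precision is limited by the number of arrays. Zeros, 3.14% to 4.57% of an array's values, were replaced by that array's lowest value above 0, and log2 values were quantile-normalised because array medians differed by 0.56. Every probe was fitted with limma 3.58.1 in R 4.3.3 (lmFit and eBayes, two-sided, Benjamini-Hochberg, threshold 0.05).

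Gene names were taken from GEO's annotation of the platform. Of 3439 probes, 692 name 1 gene, 870 several and 1877 none. Of the 692, 690 matched 689 loci of TAIR10.1, whose gene table served only for names. No name was checked against the sequence of its probe. The 4 genes, the lists and the processing were chosen with earlier results of these data known. Named genes were the 4, every measured list gene and the 3 most alike genes per member.

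The titles give array numbers 1 to 6 in both groups. Deviations of same-number arrays correlated over all probes at 0.323 to 0.418, each above 0.1, so the numbers were taken to pair the arrays. No correlation between arrays of different numbers is set beside these, so they do not show that the pairing is by number. The fit behind the printed errors has no block, and the block was an alternative. The place adjustment subtracted the median of probes within 6 places in the repeat of 288 numbers and then the median of each of 12 columns. The repeat was found between water arrays. Alternatives were the scaling, a pseudocount of 0.128, a dim filter, the variance model, a replicate block, averaged consecutive numbers, place and arrays left out. The fit and the adjustment were tested on simulated data with independent noise on every array, planted changes and a planted smooth trend over places. Those data lack the correlation between same-number arrays, so the test does not cover it. Changes were planted in a small share of probes, whereas 54.4% of probes were called here, so that setting is not covered either. The planted trend followed the same repeat that the adjustment uses, so the test does not cover a trend of another form. Figures used matplotlib 3.10.9 in Python 3.11.15.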

Additional observations from a re-analysis of the deposited data

Results flagged for a closer look

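None of the 4 genes had an array far from the others of its group. Of 40 groups of 6 arrays examined over the named genes, 4 had 1 such array, and chance gives about 5% of groups. All 4 groups belong to genes with profiles like those of the members. In log2 units, bromoxynil array 1 had 1.62 for AT2G30100, above the 1.29 to 1.40 of the other 5. Bromoxynil array 6 had -0.25 for AT3G25680, below their 0.18 to 0.39. Bromoxynil array 3 had -1.67 for AT1G02020, below their -1.34 to -1.15. Water array 2 had -0.36 for AT1G70180, above the -0.94 to -0.76 of the other water arrays.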

How the results depend on the processing

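PRXIIE, GLDH, CHL and GLX2-1 kept their direction under all 10 alternatives and with each array left out. The dim filter, the variance model, the replicate block and averaged consecutive numbers cannot move these changes, because each compares the same group means. The changes moved by at least the spread between arrays for PRXIIE with the place adjustment (1.78), for GLDH on deposited values (-1.06), with a pseudocount (-1.18) and with the place adjustment (-0.82), for CHL on deposited values (-0.41), and for GLX2-1 on deposited values (0.73) and with the place adjustment (0.83). Averaged numbers and a replicate block added to the place adjustment cannot move the place-adjusted changes either. Leaving out 1 array gave 2.27 to 2.56 for PRXIIE, -1.46 to -1.39 for GLDH, -0.90 to -0.71 for CHL and 0.16 to 0.43 for GLX2-1, the lowest without water array 1. Ranked among probes above the dimmest 25%, the difference of median percentiles was 78.5 in place of 62.0 for PRXIIE and -58.5 in place of -46.3 for GLDH.

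Called probes numbered 1872, against 2055 with the replicate block, 1230 with consecutive numbers averaged and 956 with place adjustment, averaging and block, and 1755 to 1890 with 1 array left out. Of the called probes 45.1% were higher, against 67.0% on deposited values. The other pathway genes called numbered 3, against 1 on deposited values, with averaging, and with the place adjustment with or without averaging and block, 2 without numbers 3 and 4, and 2 to 3 with 1 array left out. FTRB passed in every fit. The replicate block changed none of these calls. The sign turned for SRX on deposited values (0.064) and with the place adjustment (0.0023), for NTRC with the place adjustment (0.024), and for CCS with the place adjustment (0.23), whose change ran from -0.95 to 0.39 with 1 array left out. The cause was not tested.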
